A study of Homo sapiens with 12 samples.

Results

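The thioredoxin and peroxiredoxin system is described here through 10 genes (TXN, TXNRD1, TXNRD2, TXNIP, ARRDC4, SRXN1, PRDX1, PRDX2, PRDX3 and PRDX6), out of 19775 genes with a probe set of their own on the array. All probe sets annotated to these symbols alone were taken, 20 of 54675. The cells were HK-2, an immortalised line of human proximal tubule epithelium, given Kbr (the only name the labels have for the compound) at its high dose, or vehicle, and sampled at 24 h or 48 h. Kbr and control cultures at each time gave 4 groups, with 3 biological replicates each and 12 Affymetrix arrays in all. All cultures shared a defined medium with glucose and sodium selenite. The line is an immortalised one grown in culture, and the labels give no concentration of Kbr.

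Thioredoxin is a small protein that reduces disulfide bonds in other proteins, and thioredoxin reductases, which are selenoproteins, recharge it with electrons from NADPH. Peroxiredoxins with a pair of active cysteines use that supply to break down hydrogen peroxide. Sulfiredoxin repairs those whose cysteine has been over-oxidised. TXNIP binds thioredoxin and restrains it; it is also an alpha-arrestin that limits glucose uptake, and glucose-sensing transcription factors control its gene. Several genes of the system are known targets of NRF2, the transcription factor of the oxidant response.

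Values are log2 summaries per probe set (GCRMA, an array summary corrected for background binding), so a difference of 1 is a doubling. For each gene the probe set with the highest mean was tested with limma, and a gene is called where the p-value, adjusted over all 10574 tested genes, is under 0.05. To be tested, a gene needed 3 or more arrays above 4 on the log2 scale. ARRDC4 did not, so that 9 of the 10 genes and 15 of their 20 probe sets were tested. Array medians lay between 2.89 and 2.96. Kbr 48 h replicate 3 deviated most from its group over all tested genes (root mean square 0.29, against 0.164 to 0.228 in the other arrays). Over the members, control 48 h replicate 1 deviated most (0.527, against 0.0886 to 0.309 in the other arrays). No Kbr-control call of a member at 48 h was lost without any single array. A control probe set for 18S ribosomal RNA read 8.04 to 8.38 in Kbr arrays and 7.68 to 7.86 in control arrays at 24 h, and 8.29 to 8.56 in Kbr arrays and 7.97 to 8.04 in control arrays at 48 h. Of the 6 ribosomal control probe sets, 4 had overlapping groups at 24 h and 2 at 48 h, and the others were higher in Kbr. Among those higher at 24 h, a 28S probe set was near background, at 1.64 to 1.642 in Kbr and 1.625 to 1.636 in control arrays. The part of the ribosomal signals in the results was not tested. Of 16 proximal tubule marker genes with a probe set, 5 were tested. In control 24 h cultures these averaged 12.77 (CDH6), 11.38 (DPP4), 10.68 (PAX8), 8.42 (SLC3A1) and 8.06 (GATM). Among the others, LRP2, CUBN, AQP1, SLC34A1, SLC22A6 and SLC22A8, which define that cell type in tissue, stayed below a log2 value of 3 in every array. Of 4 epithelial genes, 0 rose and 1 fell at 24 h (0 and 3 with the replicate number as block), and 1 rose and 3 fell at 48 h (the same with the block). Over all tested genes, 12.4% rose and 20% fell at 24 h (18.6% and 29.4% with the block). At 48 h 26.9% rose and 32.8% fell (31.3% and 38.1% with the block). CDH1 fell by 2.17 at 24 h and fell by 2.60 at 48 h (SE 0.37). EPCAM stood at -0.25 at 24 h (adjusted p = 0.0654, or 0.0165 with the replicate number as block) and fell by 0.52 at 48 h (SE 0.09). KRT8 stood at -0.68 at 24 h (adjusted p = 0.0707, or 0.00159 with the block) and fell by 0.69 at 48 h (SE 0.26). KRT18 stood at -0.12 at 24 h (adjusted p = 0.564) and rose by 0.43 at 48 h (SE 0.15). Of the 5 tested tubule markers, 1 rose and 3 fell at 24 h, and 1 rose and 4 fell at 48 h (1 and 4 with the block at each time). PAX8 rose by 0.55 at 24 h and 0.56 at 48 h (SE 0.15), while CDH6 fell by 1.06 and 2.57 (SE 0.23). SLC3A1 fell by 1.80 and 2.55 (SE 0.30) and GATM by 0.91 and 1.51 (SE 0.15). DPP4 stood at -0.47 at 24 h (adjusted p = 0.1055, or 0.00669 with the block) and fell by 0.83 at 48 h (SE 0.21). A linear sum weighs most the genes with the highest values, CDH6 among them. The summed linear level of the 16 tubule markers was 7374 to 8569 in Kbr and 10560 to 12980 in control arrays at 24 h, and 5444 to 6307 in Kbr and 11400 to 14960 in control arrays at 48 h. That of 6 fibroblast markers, of which 3 were tested, was 2734 to 3652 in Kbr and 5281 to 7528 in control arrays at 24 h, and 1157 to 1551 in Kbr and 4962 to 5185 in control arrays at 48 h. What part these shifts had in the values below was not tested. In bulk RNA, fewer cells of a type and less RNA per cell cannot be told apart. Endothelial and leukocyte markers (PECAM1, VWF, KDR and PTPRC) were near background, with 0 of 4 tested.

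Comparing Kbr with control cultures asked which genes of the system changed under the compound. At 24 h, 3 of the 9 tested genes rose (TXNRD1, SRXN1 and TXN) and 2 fell (TXNIP and PRDX2), where 12.4% of all tested genes rose and 20% fell. At 48 h, 5 rose (those 3 with PRDX1 and PRDX6) and 3 fell (TXNIP, PRDX2 and PRDX3), where 26.9% of all tested genes rose and 32.8% fell. With the replicate number as a block, 4 rose and 2 fell at 24 h (all tested genes, 18.6% and 29.4%), and 5 rose and 3 fell at 48 h (31.3% and 38.1%). The arrays of Kbr and control cultures did not overlap in 7 of 9 genes at 24 h, against 51.6% of all tested genes, and in 8 of 9 at 48 h, against 62.8%. The median log2 fold change of the 9 genes was 0.18 at 24 h and 0.36 at 48 h, against -0.06 at both times over all tested genes. TXNRD2 was the only tested member called at neither time.

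**Figure D1:**
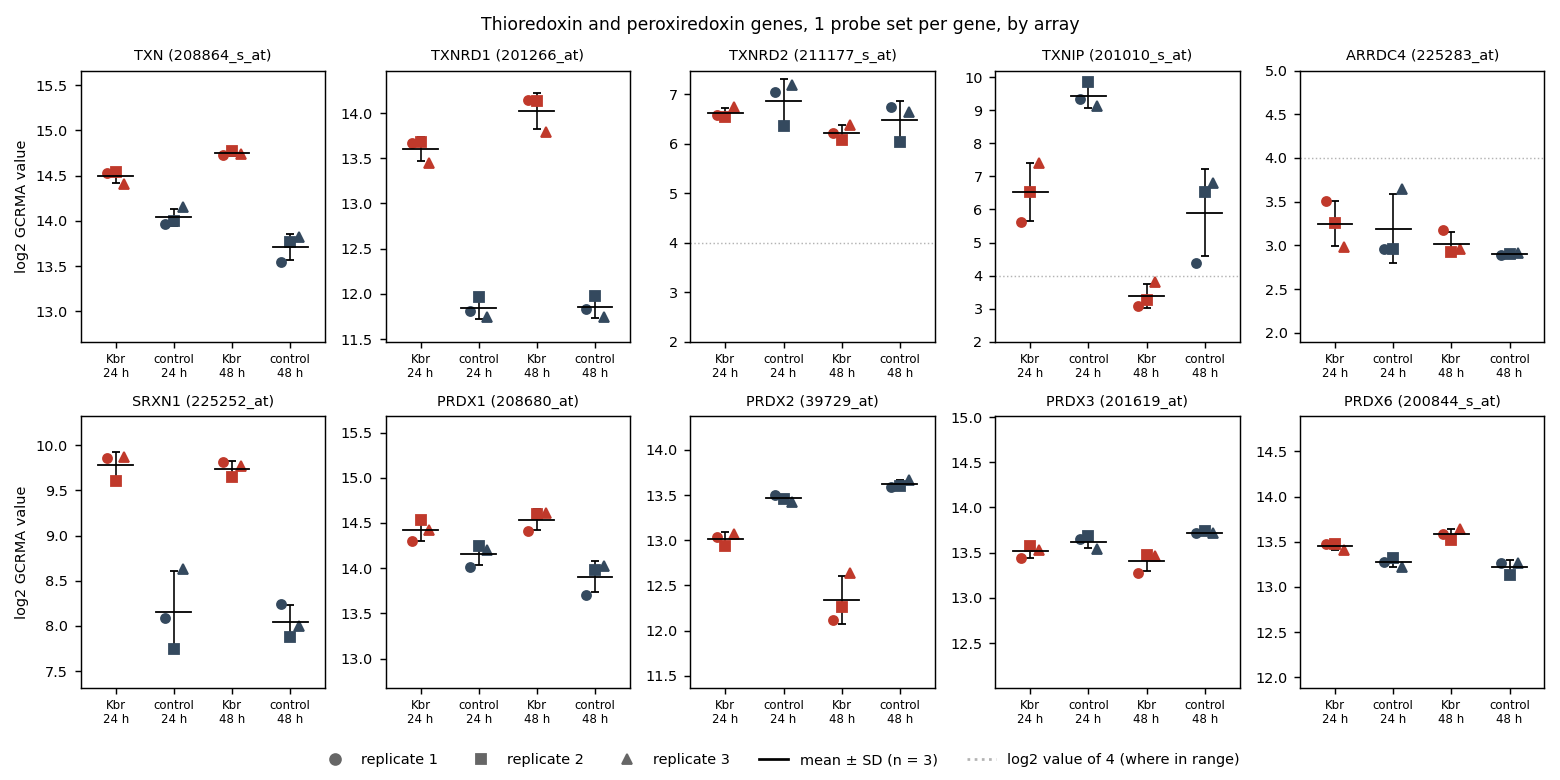
Log2 GCRMA value (y axis) of the probe set used for each of the 10 genes in the 12 arrays, with the groups on the x axis, markers by replicate number, and mean ± SD (n = 3). At each time all Kbr arrays lie above all control arrays for TXNRD1 and SRXN1, TXNIP was lower in both Kbr groups and at the later time, and ARRDC4 stayed below 4 in all 12 arrays.

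TXNIP (probe set 201010_s_at), the inhibitor of thioredoxin, varied most within the system. It read 5.63, 6.54 and 7.40 in Kbr 24 h cultures and 9.35, 9.86 and 9.13 in control 24 h cultures. At 48 h it read 3.10, 3.25 and 3.80 in Kbr cultures, against 4.38, 6.54 and 6.79 in control cultures. At neither time did the Kbr and control arrays overlap, and all 3 Kbr arrays at 48 h lay below the log2 value of 4 used as the filter. The log2 fold change was -2.92 at 24 h (SE 0.59, limma adjusted p = 0.00403) and -2.53 at 48 h (SE 0.59, adjusted p = 0.00351), and at 24 h TXNIP was at rank 6 from the lowest of 10574 genes. The size at 48 h was read against Kbr arrays under the filter and is not exact; with an offset of 32 added on the linear scale it was -1.20 (adjusted p = 0.0176). Within replicate numbers 1, 2 and 3 the differences were -3.72, -3.32 and -1.73 at 24 h. At 48 h they were -1.29, -3.30 and -2.99, the smallest in the replicate whose control array was already at 4.38.

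TXNIP also fell with time. In control cultures it averaged 5.91 ± 1.32 at 48 h and 9.44 ± 0.37 at 24 h (SD, n = 3 each), which is -3.54 on the log2 scale (SE 0.59, adjusted p = 0.0172). That was the largest fall among all 10574 tested genes in this comparison, in which 4.03% of genes were called and TXNIP was the only one of the 9. With the replicate block, 3 of the 9 were called lower (TXNIP, adjusted p = 0.00199, with TXN and PRDX1), and 20.8% of all tested genes were called. The call ended without control 24 h replicate 3 (adjusted p = 0.0603) and when only the control arrays were fitted (0.11). In Kbr cultures it averaged 3.38 ± 0.37 at 48 h and 6.52 ± 0.88 at 24 h, a difference of -3.14 (SE 0.59, adjusted p = 0.00713). That size, too, was read against the Kbr 48 h arrays under the filter, and with the offset of 32 it was -1.57 (adjusted p = 0.0184). The groups thus stood in the order control 24 h, Kbr 24 h, control 48 h, Kbr 48 h, and the ranges of Kbr 24 h and control 48 h overlapped. The difference between the Kbr effects at the 2 times was not called (0.40, SE 0.84, adjusted p = 0.816, or 1.32 with the offset, adjusted p = 0.154).

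The other 2 TXNIP probe sets gave the same order of groups. Probe set 201008_s_at read 5.55, 6.70 and 7.53 in Kbr and 9.33, 9.83 and 9.12 in control cultures at 24 h, and 2.59, 3.22 and 3.48 in Kbr against 4.61, 6.41 and 6.62 in control cultures at 48 h. Probe set 201009_s_at fell by 2.68 at 24 h (SE 0.51) and fell by 3.16 at 48 h (SE 0.51). All 3 were called lower in Kbr at both times in the fit of single probe sets, with adjusted p between 0.00372 and 0.00494 at 24 h and between 0.000382 and 0.00387 at 48 h.

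**Figure D2:**
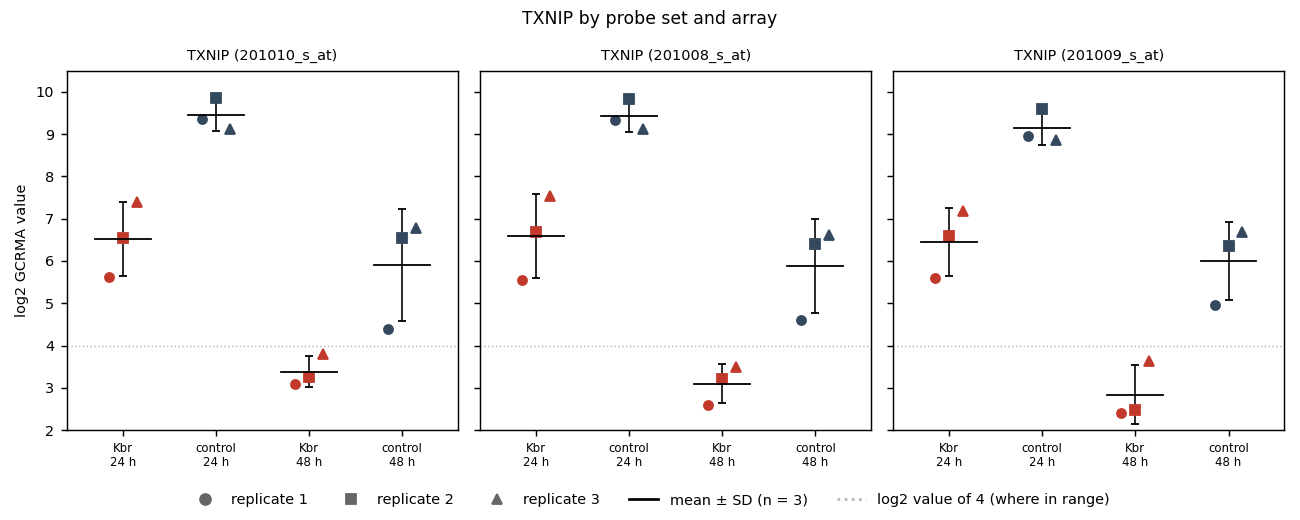
Log2 GCRMA value (y axis) of the 3 TXNIP probe sets in the 12 arrays (x axis: groups; markers: replicate number; lines: mean ± SD, n = 3; dotted: log2 value of 4). In each probe set the Kbr 48 h arrays lie lowest and the control 24 h arrays highest, while Kbr 24 h and control 48 h overlap.

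ARRDC4 (225283_at), an alpha-arrestin related to TXNIP and likewise a known target of glucose-sensing factors, lay between 2.89 and 3.65 in all 12 arrays. It read 3.51, 3.25 and 2.99 in Kbr and 2.96, 2.96 and 3.65 in control cultures at 24 h, and 3.17, 2.93 and 2.96 in Kbr and 2.89 to 2.91 in control cultures at 48 h. At this level no change could be detected, and it was not tested. The promoters of TXNIP and ARRDC4 are shown because the genes share a known regulator while only TXNIP gave a signal here. The windows run from 250 bases before to 50 after the RefSeq start (GRCh38.p14), and capitals mark matches on either strand.
TXNIP, minus strand, chr1:145996530-145996829: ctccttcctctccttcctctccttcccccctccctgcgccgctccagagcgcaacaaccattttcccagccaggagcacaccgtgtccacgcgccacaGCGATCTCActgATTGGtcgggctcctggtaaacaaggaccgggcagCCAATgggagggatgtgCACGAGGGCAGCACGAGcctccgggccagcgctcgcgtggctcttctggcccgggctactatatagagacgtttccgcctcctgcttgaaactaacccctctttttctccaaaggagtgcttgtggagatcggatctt
ARRDC4, plus strand, chr15:97960453-97960752: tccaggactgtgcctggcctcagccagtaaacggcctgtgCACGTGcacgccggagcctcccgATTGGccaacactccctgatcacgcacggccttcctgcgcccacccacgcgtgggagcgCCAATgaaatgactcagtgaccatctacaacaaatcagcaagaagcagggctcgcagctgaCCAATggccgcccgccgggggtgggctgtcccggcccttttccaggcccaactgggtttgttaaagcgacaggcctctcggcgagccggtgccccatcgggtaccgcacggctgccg
The 5 spellings searched were a pair of CACGNG boxes 5 bases apart (the form known for carbohydrate response elements and chosen with the TXNIP promoter in mind), the E-box CACGTG, the CCAAT box CCAAT, and the antioxidant response core as TGACNNNGC or TGAGNNNGC. The paired form begins 88 bases before the TXNIP start and occurs in 20 of 35116 promoter windows (0.057%), and it does not occur in the ARRDC4 window. Its match in TXNIP follows from that choice, and the part of any match in the signals was not tested. ARRDC4 holds 1 CACGTG, found in 7.26% of windows. CCAAT occurs 2 times in the TXNIP window and 3 times in that of ARRDC4, and 34.6% of windows hold it. TXNIP also holds 1 TGAGNNNGC, on the opposite strand, and no marked matches overlap each other in these 2 windows.

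TXNRD1 (201266_at), the cytosolic thioredoxin reductase, rose most in the system by the probe sets used. It read 13.67, 13.69 and 13.45 in Kbr and 11.81, 11.97 and 11.74 in control cultures at 24 h. At the later time it read 14.14, 14.13 and 13.79 in Kbr and 11.84, 11.98 and 11.74 in control cultures. The control groups differed by 0.01 between the times, and every Kbr array was above every control array. The log2 fold change was 1.76 at 24 h (SE 0.12, adjusted p = 1.68e-05), a 3.39-fold difference and rank 13 of 10574 from the highest. At 48 h it was 2.17 (SE 0.12, adjusted p = 7.49e-07), a 4.50-fold difference and rank 57. The Kbr effect was 0.41 larger at 48 h, which was not called (SE 0.18, adjusted p = 0.185) unless replicate numbers were blocked (adjusted p = 0.028). In Kbr cultures alone TXNRD1 was 0.42 higher at 48 h than at 24 h (SE 0.12, adjusted p = 0.0418), in a comparison where 17.1% of genes were called. That call held without Kbr 48 h replicate 3, control 24 h replicate 2 or control 48 h replicates 2 or 3 and ended without any one of the other 8 arrays (adjusted p between 0.0501 and 0.15). It also ended in the fit of single probe sets (adjusted p = 0.0516). These losses are from fits without the replicate block. With the block TXNRD1 was called higher at gene level (adjusted p = 0.00365) and in the fit of single probe sets (0.00527). The second TXNRD1 probe set (1561080_at) lay between 2.33 and 2.38 in all arrays and was not tested. Averaged with it, TXNRD1 rose by 0.89 at 24 h (adjusted p = 8.9e-05) and by 1.09 at 48 h (adjusted p = 2.08e-06).

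Both RefSeq starts of TXNRD1 are shown as the promoters of the member that rose most by the probe sets used. They are on the plus strand of GRCh38.p14, with capitals as above.
TXNRD1, first start, chr12:104215529-104215828: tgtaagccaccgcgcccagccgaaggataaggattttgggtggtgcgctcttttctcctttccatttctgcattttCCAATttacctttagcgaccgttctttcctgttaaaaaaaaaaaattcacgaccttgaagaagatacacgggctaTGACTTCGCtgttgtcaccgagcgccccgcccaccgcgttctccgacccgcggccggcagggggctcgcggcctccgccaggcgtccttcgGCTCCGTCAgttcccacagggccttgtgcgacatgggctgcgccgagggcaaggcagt
TXNRD1, second start, chr12:104286782-104287081: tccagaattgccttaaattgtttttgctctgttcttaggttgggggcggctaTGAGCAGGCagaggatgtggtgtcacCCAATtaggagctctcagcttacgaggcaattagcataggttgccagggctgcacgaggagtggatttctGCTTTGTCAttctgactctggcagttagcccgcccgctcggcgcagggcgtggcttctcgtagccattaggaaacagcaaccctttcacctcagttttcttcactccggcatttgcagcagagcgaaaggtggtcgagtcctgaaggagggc
The window of the first start holds TGACNNNGC 2 times, beginning 99 and 8 bases before the start, and the other window holds it 1 time and TGAGNNNGC 1 time. TGACNNNGC occurs in 13.3% of all windows and TGAGNNNGC in 18.3%. Of the 10 genes, 8 had a window in the RefSeq table, 12 windows in all. The windows of TXN and SRXN1, which also rose, hold none of the 5 spellings. TXNRD2, which was called at neither time, holds TGAGNNNGC 1 time. So do PRDX2 and TXNIP, called lower in Kbr at both times, and PRDX3, called lower at 48 h.

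**Figure D3:**
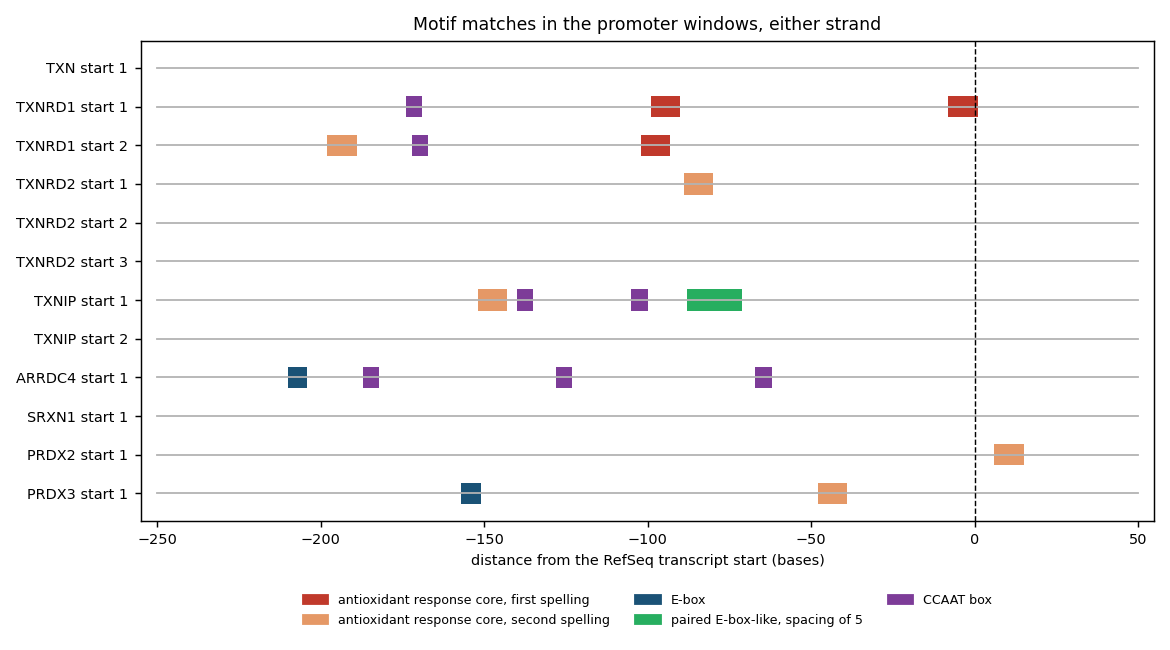
Matches of the 5 motif spellings (coloured blocks, either strand) in the 12 promoter windows of 8 member genes, by distance in bases from the RefSeq start (x axis; dashed line, the start). The paired E-box-like form, chosen with the TXNIP promoter in mind, appears only at TXNIP start 1. TGACNNNGC (first spelling) appears only at the TXNRD1 starts, and the windows of TXN and SRXN1 are empty.

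The mitochondrial reductase TXNRD2 (211177_s_at) was not called at either time. It read 6.58, 6.54 and 6.74 in Kbr and 7.05, 6.36 and 7.19 in control cultures at 24 h, and 6.22, 6.07 and 6.37 in Kbr against 6.74, 6.04 and 6.65 in control cultures at 48 h. The groups overlapped at both times. Its log2 fold change was -0.25 at each time (SE 0.23 each, adjusted p = 0.427 at 24 h and 0.355 at 48 h). Leaving out single arrays moved it between -0.50 and -0.085 at 24 h, where each of the 3 control 24 h arrays moved it by over 1.5 times, and between -0.47 and -0.12 at 48 h, where each of the 3 control 48 h arrays did. With its probe sets averaged TXNRD2 stood at -0.07 and -0.03. Replicate 2 was the lowest array in each group. Probe set 210803_at for the same gene lay between 2.74 and 3.41 and was not tested.

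TXN (208864_s_at), thioredoxin itself, read 14.53, 14.54 and 14.41 in Kbr and 13.97, 14.00 and 14.15 in control cultures at 24 h. It read 14.73, 14.78 and 14.73 in Kbr and 13.55, 13.77 and 13.83 in control cultures at 48 h. The log2 fold change was 0.45 at 24 h (SE 0.10, adjusted p = 0.00564) and 1.03 at 48 h (SE 0.10, adjusted p = 8.88e-06), with no overlap at either time. The Kbr effect was larger at 48 h by 0.58 (SE 0.14, adjusted p = 0.0384), in a comparison where 5.58% of genes were called. From 24 h to 48 h, Kbr cultures moved by 0.25 (adjusted p = 0.0963) and control cultures by -0.33 (adjusted p = 0.0838, or 0.0295 with the replicate block). The difference between the times held without Kbr 48 h replicate 3, control 24 h replicate 1 or control 48 h replicate 3 and ended without any one of the other 9 arrays (adjusted p between 0.065 and 0.0962). A second TXN probe set, 216609_at, read 9.80, 9.49 and 9.16 in Kbr and 9.05, 8.96 and 9.12 in control cultures at 24 h. It stood at 0.44 (SE 0.20, adjusted p = 0.127 in the fit of single probe sets) at 24 h and rose by 0.78 at 48 h (SE 0.20, adjusted p = 0.00621); its own difference between the times was 0.35 (adjusted p = 0.516). With that probe set in place of the first, the call of TXN at 24 h ended (adjusted p = 0.116).

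SRXN1 (225252_at), sulfiredoxin, read 9.86, 9.61 and 9.87 in Kbr and 8.09, 7.74 and 8.63 in control cultures at 24 h, and 9.82, 9.64 and 9.77 in Kbr against 8.25, 7.88 and 7.996 in control cultures at 48 h. No arrays overlapped between Kbr and control. It rose by 1.62 at 24 h (SE 0.19, adjusted p = 0.000284) and by 1.70 at 48 h (SE 0.19, adjusted p = 3.00e-05), 3.08-fold and 3.25-fold, and was at rank 21 from the highest at 24 h and rank 173 at 48 h. The Kbr effects at the 2 times differed by 0.08 (SE 0.27, adjusted p = 0.892).

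The peroxiredoxins split by gene. PRDX1 (208680_at), a cytosolic form with a pair of active cysteines, read 14.30, 14.54 and 14.43 in Kbr and 14.02, 14.24 and 14.21 in control cultures at 24 h. At 48 h it read 14.41, 14.60 and 14.61 in Kbr and 13.71, 13.98 and 14.03 in control cultures. The log2 difference of 0.26 at 24 h was not called (SE 0.12, adjusted p = 0.108) but was with the replicate block (adjusted p = 0.00958), and the within-replicate differences were 0.28, 0.29 and 0.22. PRDX1 rose by 0.64 at 48 h (SE 0.12, adjusted p = 0.000775). The difference between these effects, 0.37, was called only with the block (adjusted p = 0.196, or 0.0251 with it), and so was the change of -0.25 in control cultures at 48 h against 24 h (0.238, or 0.0265).

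PRDX2 (39729_at), another cytosolic peroxiredoxin with a pair of active cysteines, went the other way. It read 13.04, 12.94 and 13.07 in Kbr and 13.50, 13.46 and 13.42 in control cultures at 24 h, and 12.12, 12.26 and 12.64 in Kbr against 13.59, 13.60 and 13.67 in control cultures at 48 h. It fell by 0.44 at 24 h (SE 0.12, adjusted p = 0.0174) and by 1.28 at 48 h (SE 0.12, adjusted p = 9.12e-06), when Kbr arrays held 2.43-fold less. Leaving out replicate 2 of Kbr 24 h (adjusted p = 0.0615) or replicate 1 of control 24 h (0.0594) ended the call at 24 h, as did averaging all probe sets of the gene (-0.11, adjusted p = 0.311). Averaged in that way, PRDX2 fell by 0.45 at 48 h (adjusted p = 0.000634), and the difference between the times was -0.34 (adjusted p = 0.101). The fall was larger at 48 h by the test of the difference (-0.84, SE 0.17, adjusted p = 0.0246). That call held without Kbr 48 h replicates 1 or 3, control 24 h replicates 1 or 2 or control 48 h replicate 3 and ended without any one of the other 7 arrays (adjusted p between 0.0506 and 0.0667). In Kbr cultures PRDX2 fell by 0.68 at 48 h against 24 h (SE 0.12, adjusted p = 0.00571), and in control cultures the change was 0.16 (adjusted p = 0.487).

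The probe sets of PRDX2 did not all show this fall. Probe set 211658_at read 9.87, 9.83 and 9.93 in Kbr and 9.86, 9.87 and 9.89 in control cultures at 24 h, a difference of 0.01 (SE 0.15). At 48 h it read 9.20, 9.32 and 9.87 in Kbr against 9.86, 9.86 and 10.08 in control cultures and fell by 0.47 (SE 0.15, adjusted p = 0.0227), with Kbr replicate 3 inside the control range. Probe set 215067_x_at stood at 0.06 and -0.05 (SE 0.18 each, adjusted p = 0.854 and 0.837), and 201006_at lay between 3.42 and 3.71 and was not tested. The suffix of 215067_x_at marks probes that may match other transcripts.

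PRDX3 (201619_at), the mitochondrial peroxiredoxin, read 13.44, 13.58 and 13.53 in Kbr and 13.65, 13.68 and 13.54 in control cultures at 24 h, with overlap. At 48 h it read 13.28, 13.47 and 13.46 in Kbr and 13.72, 13.73 and 13.71 in control cultures, without overlap. The log2 fold change was -0.11 at 24 h (adjusted p = 0.364) and -0.32 at 48 h (SE 0.09, adjusted p = 0.00924). The call at 48 h ended when PRDX3 was averaged with its second probe set (-0.10, adjusted p = 0.628). That probe set lay between 2.35 and 3.86 in all arrays, below the filter of 4, and was not tested on its own.

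PRDX6 (200844_s_at), which has a single active cysteine and also acts on phospholipids, read 13.48, 13.48 and 13.40 in Kbr and 13.27, 13.32 and 13.22 in control cultures at 24 h. The 48 h arrays read 13.59, 13.52 and 13.64 in Kbr against 13.27, 13.13 and 13.27 in control cultures. These shifts were small and without overlap, 0.18 at 24 h (SE 0.08, adjusted p = 0.11) and 0.36 at 48 h (SE 0.08, adjusted p = 0.0029). Probe set 200845_s_at gave 0.41 at 24 h (SE 0.11, adjusted p = 0.0171) and 0.39 at 48 h (SE 0.11, adjusted p = 0.00908), so that 1 of 2 PRDX6 probe sets was called at 24 h and both at 48 h. At 24 h PRDX6 passed with no filter (adjusted p = 0.0301), a trended and robust prior (0.0336) or its probe sets averaged (0.00838).

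**Figure D4:**
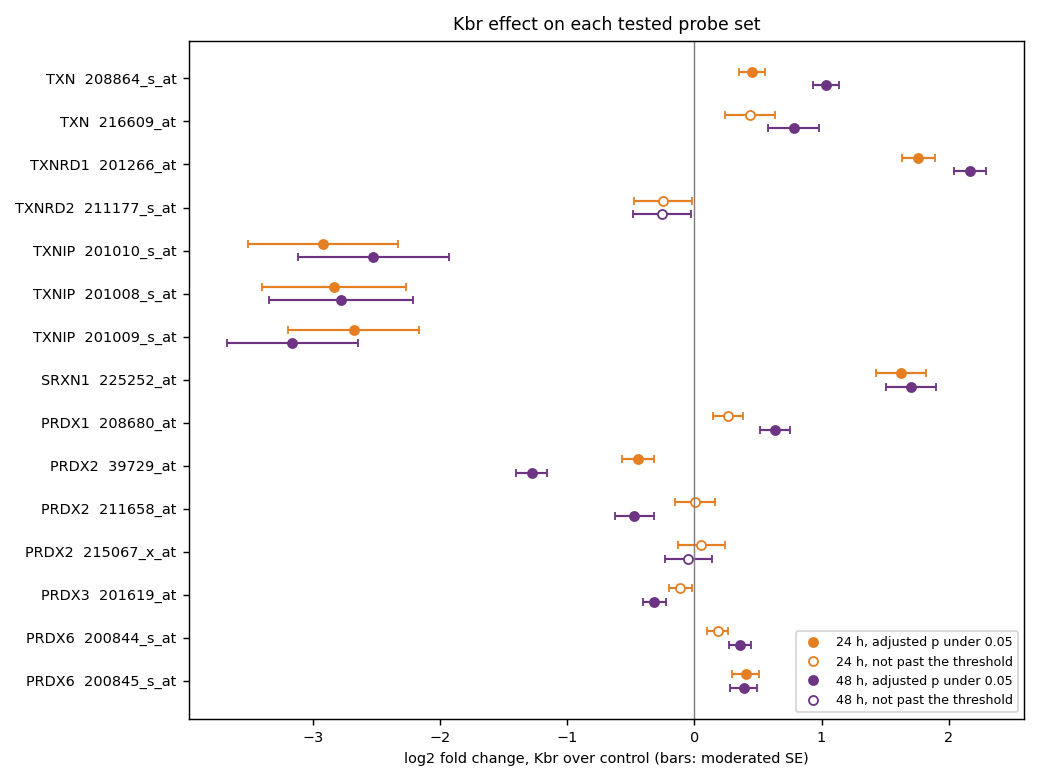
Log2 fold change of Kbr over control (x axis; bars, moderated SE) at 24 h and 48 h for the 15 tested member probe sets (y axis), filled where the adjusted p was under 0.05 over 19351 probe sets. The 3 TXNIP probe sets lie between -3.16 and -2.53, TXNRD1 and SRXN1 between 1.62 and 2.17, and the PRDX2 probe sets spread from -1.28 to 0.06.

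Among genes related to the system by function or name, the glutaredoxin and glutathione reductase list moved in 4 of 5 genes at each time, 3 higher and 1 lower. Its median was 0.55 at 24 h and 0.90 at 48 h (all tested genes, -0.06 at both). GSR, glutathione reductase, rose by 0.93 at 24 h (SE 0.15) and 0.90 at 48 h (SE 0.15). GLRX2, a mitochondrial glutaredoxin, rose by 0.62 and 1.24 (SE 0.11 each) and GLRX3 by 0.55 and 1.19 (SE 0.15 each), while the cytosolic GLRX fell by 0.61 at 24 h and fell by 0.56 at 48 h (SE 0.12). Of 15 other tested thioredoxin and thioredoxin-like genes, 2 rose and 0 fell at 24 h (5 and 2 with the replicate block). At 48 h, 3 rose and 3 fell (5 and 4 with the block). Over all tested genes the shares were 12.4% and 20% at 24 h (18.6% and 29.4% with the block) and 26.9% and 32.8% at 48 h (31.3% and 38.1% with the block), and these counts lie near or below them at both times, the 5 higher genes of the block at 24 h aside. TXNL4B, listed for its thioredoxin-like name, rose by 0.82 and 1.67 (SE 0.17 each), and its part in the system was not tested. TXNL1, a thioredoxin-like protein, rose by 0.64 and 0.85 (SE 0.09 each). TMX2 also rose at 48 h (0.41, SE 0.12) and TXN2, the mitochondrial thioredoxin, fell by 0.71 (SE 0.17). TMX4, a membrane thioredoxin of the endoplasmic reticulum, fell by 1.32 at 48 h (SE 0.11) and TXNDC16 fell by 0.91 (SE 0.16; -0.39 at 24 h, adjusted p = 0.0834, or 0.00235 with the block). Of PRDX4, SESN1 and SESN2, only SESN1, a sestrin, was called, at 48 h (-1.43, SE 0.34). PRDX4, the peroxiredoxin of the endoplasmic reticulum, stood at -0.06 and -0.08 (adjusted p = 0.675 and 0.518), and SESN2 at -0.62 and 1.03 (adjusted p = 0.449 and 0.158).

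Of 3 other tested alpha-arrestins, ARRDC1 fell by 1.18 at 24 h (SE 0.27) and by 1.80 at 48 h (SE 0.27). ARRDC2 stood at -0.06 and -0.03 and ARRDC3 at 0.02 and -0.31, with adjusted p between 0.186 and 0.951. In the list of glucose-sensing factors and glucose uptake genes, 1 of 5 rose and 1 fell at each time (1 and 2 at 24 h, and 2 and 2 at 48 h, with the block), near the all-gene shares. SLC2A1, the glucose transporter GLUT1, rose by 0.59 and 1.53 (SE 0.15 each). SLC2A3, another glucose transporter, fell by 0.61 at 24 h (SE 0.19) and stood at -0.45 at 48 h (adjusted p = 0.0642, or 0.0433 with the block). MLX, the partner of the factors that act on TXNIP, stood at -0.31 at 24 h (adjusted p = 0.0624, or 0.0131 with the block) and fell by 0.56 at 48 h (SE 0.12).

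Among 9 enzymes that draw on thioredoxin or are bound by it, 1 rose (2 with the block) and 3 fell at 24 h, and 0 rose (1 with the block) and 4 fell at 48 h, where 12.4% and 20% of all tested genes rose and fell at 24 h, and 26.9% and 32.8% at 48 h. The methionine sulfoxide reductases MSRB2 and MSRB3, which take electrons from thioredoxin, fell by 0.72 and 0.69 at 24 h and fell by 1.36 and 1.16 at 48 h (SE 0.13 for MSRB2 and 0.21 for MSRB3). MSRB1, itself a selenoprotein of that family, rose by 0.47 at 24 h (SE 0.12). It stood at 0.27 at 48 h (adjusted p = 0.0676, or 0.0394 with the block). APEX1, a repair nuclease with a redox function, fell by 0.50 at 24 h and 0.82 at 48 h (SE 0.09), and MAP3K5, the kinase ASK1 that thioredoxin holds inactive, by 0.94 at 48 h (SE 0.23). Of 7 genes of selenoprotein synthesis, which the reductases need, 1 rose and 2 fell at 24 h, and 2 rose and 2 fell at 48 h (3 and 4 with the block). The counts without the block lie near those all-gene shares. SECISBP2, which binds the selenocysteine insertion element, fell by 1.28 at 24 h and fell by 1.95 at 48 h (SE 0.18). PSTK, a kinase for the selenocysteine tRNA, rose by 1.13 and 1.82 (SE 0.13 each) and SEPSECS, the next enzyme of that route, by 1.25 at 48 h (SE 0.32). TRNAU1AP fell by 0.45 at 24 h (SE 0.14) and stood at -0.25 at 48 h (adjusted p = 0.15, or 0.0438 with the block). SEPHS1 fell by 0.47 at 48 h (SE 0.09). TMX2, TXN2, MSRB1 and SEPHS1 are named outside the rule for named genes, after their values were seen.

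The genes most like TXNIP over the 12 arrays, by Pearson correlation of log2 values among all tested genes outside the system, were TDP1 (r = 0.973), RBKS (0.969), EPB41L3 (0.967), TANGO6 (0.959) and GINS2 (0.954). EPB41L3 averaged 7.90 in Kbr 24 h, 8.73 in control 24 h, 7.05 in Kbr 48 h and 7.80 in control 48 h cultures, in the order of groups seen for TXNIP and over a narrower range. Those most like TXNRD1 were SREK1IP1 (0.994), STK35 (0.993), NAA16 (0.991), DNAJC2 (0.989) and SNRNP48 (0.987). DNAJC2 averaged 12.05 in Kbr and 10.59 in control cultures at 24 h, and 12.62 in Kbr and 10.57 in control cultures at 48 h. The 12 arrays form 4 groups of paired cultures, and each correlation is a description over arrays that share groups and replicate numbers.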

How the data were processed

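RNA from 12 HK-2 cultures was hybridised to Affymetrix arrays as biotinylated cRNA, per the labels' protocols. GCRMA gave the authors' deposited log2 values, per the submitters' processing notes; detection calls and a genome build are not given in the sources used here. Probe sets were named from the platform's annotation: 41097 of 54675 carried 1 symbol and 1801 several. The probe set with the highest mean stood for each gene, and 10574 of 19775 genes with 3 or more arrays above 4 on the log2 scale were tested. The number of arrays limits the precision.

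A linear model over the 12 arrays, with 4 group means, was fitted by limma 3.58.1 (R 4.3.3; two-sided moderated tests from eBayes, with residual df of 8 and prior df of 2.87), with Benjamini-Hochberg adjustment over all tested genes of each of 5 comparisons. The same fit was made over 19351 single probe sets. Deviations from group means correlated at 0.232 to 0.633 in the 18 array pairs sharing a replicate number and at -0.378 to -0.0042 in the other 36. By that check the numbers pair the arrays. The fit with the number as a block stands beside the gene-level results given here whose call it changes. On simulated data with 200 of 10574 genes changed by 1 on the log2 scale, 76.5% were recovered at 24 h and 79.5% at 48 h, and 5.56% and 3.64% of the called genes were false. Far more genes were called in the data (12.4% higher and 20% lower at 24 h, 26.9% and 32.8% at 48 h). The simulated rates therefore do not carry over to the calls given here. Members, lists and the naming rule (all members; from each of 7 pathway lists the 3 largest changes at each time, called ones first; the 5 genes most correlated with TXNIP and with TXNRD1) were chosen with earlier results of these data known. Python 3.11.15 with pandas 2.3.3 and matplotlib 3.10.9 served for promoter searches and plots.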

Additional observations from a re-analysis of the deposited data

Results flagged for a closer look

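The Kbr effect differed between 48 h and 24 h, by the test of that difference, in 2 of the 9 tested genes, TXN (0.58 on the log2 scale, larger rise at 48 h) and PRDX2 (-0.84, larger fall at 48 h), where 5.58% of all tested genes were called. With the replicate block 4 of 9 were called (TXNRD1 and PRDX1 as well), where 20.2% of all tested genes were. Without the block, both calls depended on single arrays as given above. With it, the adjusted p was 0.0152 for TXN and 0.00926 for PRDX2. Neither difference was called in the other tested probe sets of these genes. Probe set 216609_at of TXN stood at 0.35 (adjusted p = 0.516). For PRDX2, 211658_at stood at -0.48 (adjusted p = 0.224) and 215067_x_at at -0.11 (adjusted p = 0.856).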

How the results depend on the processing

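Counts of called members at 48 h kept within 1.5 times of those given under all settings run. At 24 h the members lower in Kbr numbered 1 with all probe sets of a gene averaged and 1 at an adjusted p under 0.01 (1 to 2 over left-out arrays). For the difference of the Kbr effects, the higher members numbered 0 with probe sets averaged, with unsuffixed probe sets preferred or at 0.01, and 3 with the replicate block; the lower ones numbered 0 with probe sets averaged or at 0.01 (both 0 to 1 over left-out arrays). In control cultures over time, lower members numbered 2 with a trended and robust prior, 3 with the replicate block, and 0 with only the groups compared or at 0.01 (0 to 1). In Kbr cultures over time, higher members numbered 0 without the filter, with averaged or single probe sets, centred arrays, quantile normalization, only the groups compared or at 0.01, and 2 with a trended and robust prior (0 to 1). Between Kbr and control cultures, the replicate block also called PRDX1 higher at 24 h (4 members higher in place of 3) and changed no other call of a member. For the difference of the Kbr effects it added TXNRD1 and PRDX1 to the higher members. In control cultures over time it added TXN and PRDX1 to the lower ones.

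These values changed sign, none of them called under either setting. With probe sets averaged, PRDX3 at 24 h stood at 0.21, and the difference of effects at -0.0098 for TXNIP and 0.046 for TXNRD2. That of TXNRD2 was also 0.0068 with centred arrays, 0.022 with quantile normalization and 0.01033 with an offset of 32. Over left-out arrays the difference of effects ranged from -0.16 to 0.29 for SRXN1, -0.36 to 0.84 for TXNIP and -0.23 to 0.25 for TXNRD2. The change with time ranged in control cultures from -0.32 to 0.12 for SRXN1 and -0.051 to 0.078 for TXNRD1, and in Kbr cultures from -0.12 to 0.012 for SRXN1. The cause was not tested. Values near a log2 of 4 or below, as for ARRDC4 and for TXNIP in Kbr 48 h cultures, lie close to background and limit the size of fold that can be read.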
